A study of Homo sapiens with 10 samples.

Results

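The nucleolar ribosome assembly genes are 10 genes whose products make, modify or assemble ribosomal RNA in the nucleolus: NCL, NPM1, FBL, NOP56, NOLC1, DKC1, NOP2, BOP1, PES1 and RRS1. A member was measured through a probe set of the deposited table whose annotation gives that gene's symbol alone. Of the 10 genes, 5 had such a probe set, 1 each: NCL (200610_s_at), NPM1 (200063_s_at), NOLC1 (205895_s_at), NOP2 (214427_at) and PES1 (202212_at). These are 5 of the 7714 genes with a probe set of 1 symbol. NOP56 and DKC1 are named only on probe sets that carry several symbols, so their values were not used. FBL, BOP1 and RRS1 were not analysed here. All 5 measured genes lay above the signal floor of 37.5 on all 10 arrays and entered the test, so no member was lost to the filter on low values. For NCL, NPM1 and NOLC1 the ending _s_at marks a probe set that can match more than 1 transcript.

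The arrays carried RNA from U937, an established human monocytic cell line that was treated with interferon gamma to differentiate it in every group, the control included. Antibody receptors were then cross-linked on the cells: CD64, the high-affinity receptor for IgG, for 6 h or for 2 h, or CD32, the low-affinity receptor, for 6 h or for 2 h. The control lists no cross-linking and no time. Each of the 5 groups has 2 arrays, and the second array of a cross-linked group is called a duplicate without word on whether it came from another culture. The p-values therefore measure only the spread between these arrays, which may be technical. For 1 CD32 2 h array the source name reads CD332, and its title and description, which read CD32, were followed.

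Ribosomes are built in the nucleolus, where RNA polymerase I makes a long precursor RNA that is methylated, converted in places to pseudouridine, cut and folded onto ribosomal proteins. Nucleolin (NCL) binds ribosomal DNA and the precursor RNA, and nucleophosmin (NPM1) is the abundant chaperone of the outer nucleolus, where late assembly steps take place. NOLC1 carries the small guide particles that direct RNA modification, NOP2 methylates a cytosine of the large ribosomal RNA, and PES1, pescadillo, works in a complex with BOP1 and WDR12 on the large subunit. Of the members not measured, FBL and NOP56 belong to the particles that methylate ribose, DKC1 makes pseudouridine, and RRS1 helps to place the 5S particle. The transcription factor MYC is a known activator of many of these genes. In myeloid cells the pathway is known to run high during growth and to be turned down in terminal differentiation.

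RefSeq (GRCh38.p14) gave a start region for 4 of the 5 genes. They are shown because 2 kinds of letters in them are known from the regulation of this pathway: CACGTG, the E-box that MYC can bind, and a run of pyrimidines that opens with C at the first transcribed base, which is the mark of transcripts for ribosomal proteins. Each line runs 5′ to 3′ on the gene's strand, from 60 bases before the start through the first 20 transcribed bases. Capitals mark the E-box CACGTG, the stretch around the repeat TATATA, and the pyrimidine run at the start.
NPM1: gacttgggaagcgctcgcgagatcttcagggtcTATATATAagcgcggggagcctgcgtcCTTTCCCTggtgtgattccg
PES1: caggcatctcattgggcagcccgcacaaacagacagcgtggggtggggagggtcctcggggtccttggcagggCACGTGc
NCL: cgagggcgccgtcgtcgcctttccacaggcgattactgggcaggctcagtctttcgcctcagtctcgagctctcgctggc
NOP2: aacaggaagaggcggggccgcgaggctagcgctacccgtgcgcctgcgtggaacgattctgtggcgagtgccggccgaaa

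These windows lie at chr5:171387789-171387868 on the plus strand for NPM1, chr22:30591891-30591970 on the minus strand for PES1, chr2:231464465-231464544 on the minus strand for NCL and chr12:6568272-6568351 on the minus strand for NOP2. NPM1 has 2 RefSeq starts, and the first of the table is shown, which lies 733 bases inside the gene's outer start. The PES1 start of the table lies 15103 bases inside that gene's outer start. From the start shown, the NPM1 transcript opens with a run of 8 pyrimidines, CTTTCCCT, while the entry of the other NPM1 start has neither such a run nor TATATA. A start with C and at least 4 further pyrimidines was held by 4.07% of all 35116 entries and by 43 of the 65 entries of ribosomal protein genes. TATATA occurs in 2 overlapping copies before the NPM1 start shown, the first 27 bases upstream, and somewhere in the 300 bases of 3.99% of all entries. CACGTG, which reads alike on both strands, begins at base 14 of the PES1 transcript from this start and at base 36 of the NOP2 transcript, beyond the printed end. It was in the 300 bases of 7.26% of all entries and in neither the NCL entry nor either NPM1 entry. A match of letters is a description of the reference and not a measured binding site.

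Signals are linear and in arbitrary units, scaled alike on every array by the submitters. A log2 change of 1 is a doubling of this signal. Signals of different probe sets are not comparable as amounts of RNA, so each gene is followed across groups. Fewer cells of a kind and less RNA per cell cannot be told apart in such data.

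NPM1 had the clearest pattern of the 5. Its signal was 7807 and 7432 in CD64 6 h cells, 13846 and 14442 in CD64 2 h cells, 13048 and 14640 in CD32 6 h cells, and 11562 and 10442 in CD32 2 h cells, against 14593 and 12484 in control cells. The 2 CD64 6 h arrays lay below the other 8, with a wide gap to the next lowest. The CD32 2 h pair came next, below the control, CD64 2 h and CD32 6 h arrays, which overlapped. The order of the group means was CD64 2 h, CD32 6 h, control, CD32 2 h and CD64 6 h, and of the neighbours that were compared, CD64 2 h and CD32 6 h each differed from control by less than the spread between arrays.

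NCL was high on every array. Its signal was 3803 and 4075 in CD64 6 h cells, 4038 and 4576 in CD64 2 h cells, 3738 and 4140 in CD32 6 h cells, and 3203 and 3295 in CD32 2 h cells, against 4031 and 4214 in control cells. The CD32 2 h pair lay below all other arrays, and the other 4 groups overlapped.

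NOLC1 was lower on the arrays of every cross-linked group than on both control arrays. Its signal was 601.0 and 626.9 in CD64 6 h cells, 468.2 and 510.3 in CD64 2 h cells, 491.1 and 472.8 in CD32 6 h cells, and 507.7 and 553.8 in CD32 2 h cells, against 670.7 and 644.8 in control cells. The CD64 6 h pair lay nearest to control, and the CD64 2 h and CD32 6 h pairs lay lowest and overlapped.

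NOP2 stood out on the CD64 2 h arrays. Its signal was 387.4 and 320.4 in CD64 6 h cells, 497.3 and 469.1 in CD64 2 h cells, 241.5 and 393.5 in CD32 6 h cells, and 300.8 and 353.1 in CD32 2 h cells, against 331.4 and 291.1 in control cells. Both CD64 2 h arrays were above the other 8, and the other 4 groups overlapped, with the 2 CD32 6 h arrays far apart.

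PES1 had no group that stood clear of the rest. Its signal was 279.8 and 246.2 in CD64 6 h cells, 234.4 and 294.7 in CD64 2 h cells, 374.5 and 314.6 in CD32 6 h cells, and 268.8 and 232.9 in CD32 2 h cells, against 276.5 and 366.1 in control cells. The 2 control arrays were themselves 1 low and 1 high.

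**Figure D1:**
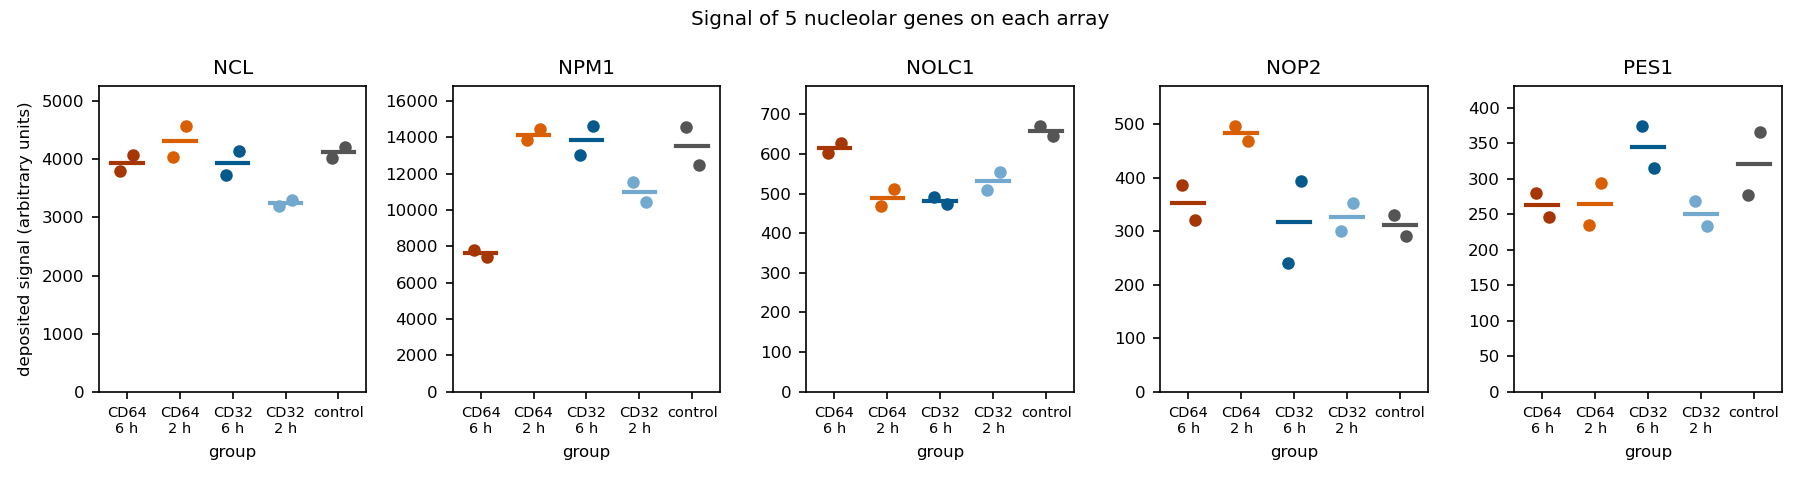
Deposited signal (arbitrary units, axes from 0) of the 5 genes on each array, by group; each point is 1 array and each line the mean of the 2 arrays. NPM1 is low on both CD64 6 h arrays, NCL on both CD32 2 h arrays, and NOP2 is high on both CD64 2 h arrays.

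The genes were unequally steady between groups. The highest and lowest group means differed by 1.86-fold for NPM1, 1.57-fold for NOP2, 1.37-fold for PES1, 1.36-fold for NOLC1 and 1.32-fold for NCL. The spread between the 2 arrays of a group, as the median SD of log2 signal, was 0.10 for NPM1, 0.16 for NOP2, 0.18 for PES1, 0.043 for NOLC1 and 0.070 for NCL. In a test of any difference among the 4 cross-linked groups and control, limma gave an adjusted p of 0.000436 for NPM1, 0.038 for NCL, 0.0482 for NOLC1, 0.203 for NOP2 and 0.439 for PES1. That test called 3 of the 5 members and 34.5% of all 7708 probe sets.

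The first question was what 6 h of CD64 cross-linking left in these genes relative to cells without it. NPM1 fell to a mean signal of 7620 ± 265 in CD64 6 h cells, against 13538 ± 1491 in control cells (SD, n = 2 each), which is 1.77-fold lower. The log2 change was -0.83 with a standard error of 0.11 and a 95% interval of -1.07 to -0.58 (limma adjusted p = 0.000358). NPM1 was the 1 of 5 members called at an adjusted p under 0.05, where 20.6% of all probe sets were called, 10.7% as higher and 9.94% as lower. The other members had log2 changes of 0.18 for NOP2, -0.07 for NCL, -0.10 for NOLC1 and -0.28 for PES1, with intervals that span 0. The median change was -0.10 over the 5 members and -0.04 over all probe sets.

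The size of the NPM1 change depended on how the arrays were scaled. It was -0.34 after quantile normalization (limma adjusted p = 0.101) and -0.48 after cyclic loess normalization (adjusted p = 0.014). Median scaling left it at -0.82 but not called (adjusted p = 0.0615), and percentile 75 scaling gave -0.91 (adjusted p = 0.000202). NPM1 was the probe set of rank 71 by mean signal among the 7708 tested, and its mean percentile among the 8746 probe sets of an array that are not controls was 98.9 in CD64 6 h cells and 99.3 in control cells.

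Other bright probe sets were also lower on the CD64 6 h arrays. The 385 brightest probe sets had a median log2 change of -0.31 against control, with 182 of them called lower, while the median of the others was -0.02. After quantile normalization the median of these 385 was 0.01. The highest signal of an array averaged 15202 in CD64 6 h cells and 28012 in control cells. The added control RNA, bacterial and phage, averaged a log2 signal of 9.61 in CD64 6 h cells and 11.19 in CD64 2 h cells. It averaged 12.61 in CD32 6 h cells and 11.48 in CD32 2 h cells, against 10.89 in control cells. The actin 3′ to 5′ ratio, a measure of RNA and labelling quality, was 1.12 in CD64 6 h cells, 1.81 in CD64 2 h cells, 1.99 in CD32 6 h cells and 1.56 in CD32 2 h cells, against 1.30 in control cells. The part of these differences in the NPM1 result was not tested.

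**Figure D2:**
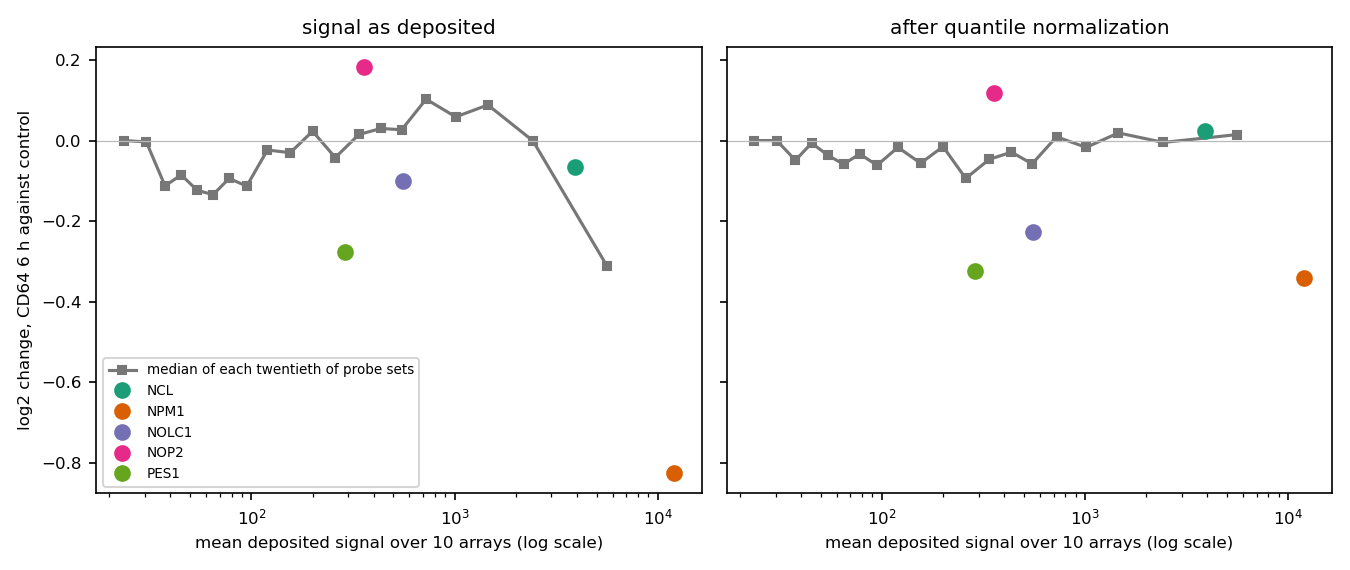
Log2 change of CD64 6 h cells against control (vertical axis) by mean deposited signal over the 10 arrays (horizontal axis, log scale), with the signal as deposited (left) and after quantile normalization (right). Grey squares are medians of 20 equal bins of probe sets and coloured points the 5 genes. As deposited, the brightest bin has a median of -0.31 and NPM1 is at -0.83; after quantile normalization they are at 0.01 and -0.34.

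At 2 h of CD64 cross-linking 1 of 5 members was called against control, and 15.9% of all probe sets, 7.64% as higher and 8.24% as lower. The called gene was NOLC1, with a mean of 489 ± 29.8 in CD64 2 h cells and 658 ± 18.3 in control cells (SD, n = 2 each). Its log2 change was -0.43 with a standard error of 0.13 (limma adjusted p = 0.0435), beside a median of -0.13 over all probe sets. The call was lost under each of the 4 other scalings and without any 1 of the 4 arrays, with adjusted p values up to 0.787.

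NOP2 averaged 483 ± 19.9 in CD64 2 h cells and 311 ± 28.5 in control cells (SD, n = 2 each), 1.56-fold apart, and the arrays did not overlap. Its log2 change of 0.64 had a 95% interval of 0.11 to 1.16 and missed the threshold (limma adjusted p = 0.103). It passed after quantile normalization (0.77, adjusted p = 0.0481), cyclic loess normalization (0.80, adjusted p = 0.036) and percentile 75 scaling (0.75, adjusted p = 0.0498). It missed after median scaling (0.92, adjusted p = 0.0566) and was called under no other alternative. NCL, NPM1 and PES1 had log2 changes of 0.06, 0.07 and -0.28.

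CD32 cross-linking was compared with the same control arrays, so these comparisons and those of CD64 share 2 arrays and are not independent. At 6 h of CD32 cross-linking NOLC1 was again the 1 member called, where 20.0% of all probe sets were called, 9.63% as higher and 10.3% as lower. It averaged 482 ± 12.9 in CD32 6 h cells and 658 ± 18.3 in control cells (SD, n = 2 each), a log2 change of -0.45 with a 95% interval of -0.73 to -0.17 (limma adjusted p = 0.0299). The call was lost without any 1 of the 4 arrays (adjusted p of 0.0526 to 0.0881), after cyclic loess normalization (-0.35, adjusted p = 0.0933) and after median scaling (-0.34, adjusted p = 0.371). NPM1 had a log2 change of 0.03 at this time, with an interval of -0.21 to 0.28.

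At 2 h of CD32 cross-linking NCL was the 1 member called, where 15.5% of all probe sets were called, 8.86% as higher and 6.60% as lower. NCL averaged 3249 ± 65.0 in CD32 2 h cells and 4122 ± 129 in control cells (SD, n = 2 each), 1.27-fold lower, with a log2 change of -0.34 and a standard error of 0.094 (limma adjusted p = 0.0316). The call was lost without any 1 of the 4 arrays (adjusted p of 0.0792 to 0.154) and after median scaling (-0.31, adjusted p = 0.525). NPM1, NOLC1 and PES1 had log2 changes of -0.30, -0.31 and -0.35 that were not called, and NOP2 had 0.07. The median over the 5 members was -0.31 and that over all probe sets -0.03, the widest gap among the 4 comparisons with control. An unadjusted p under 0.05 was reached by 3 of the 5 and by 26.6% of all probe sets.

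**Figure D3:**
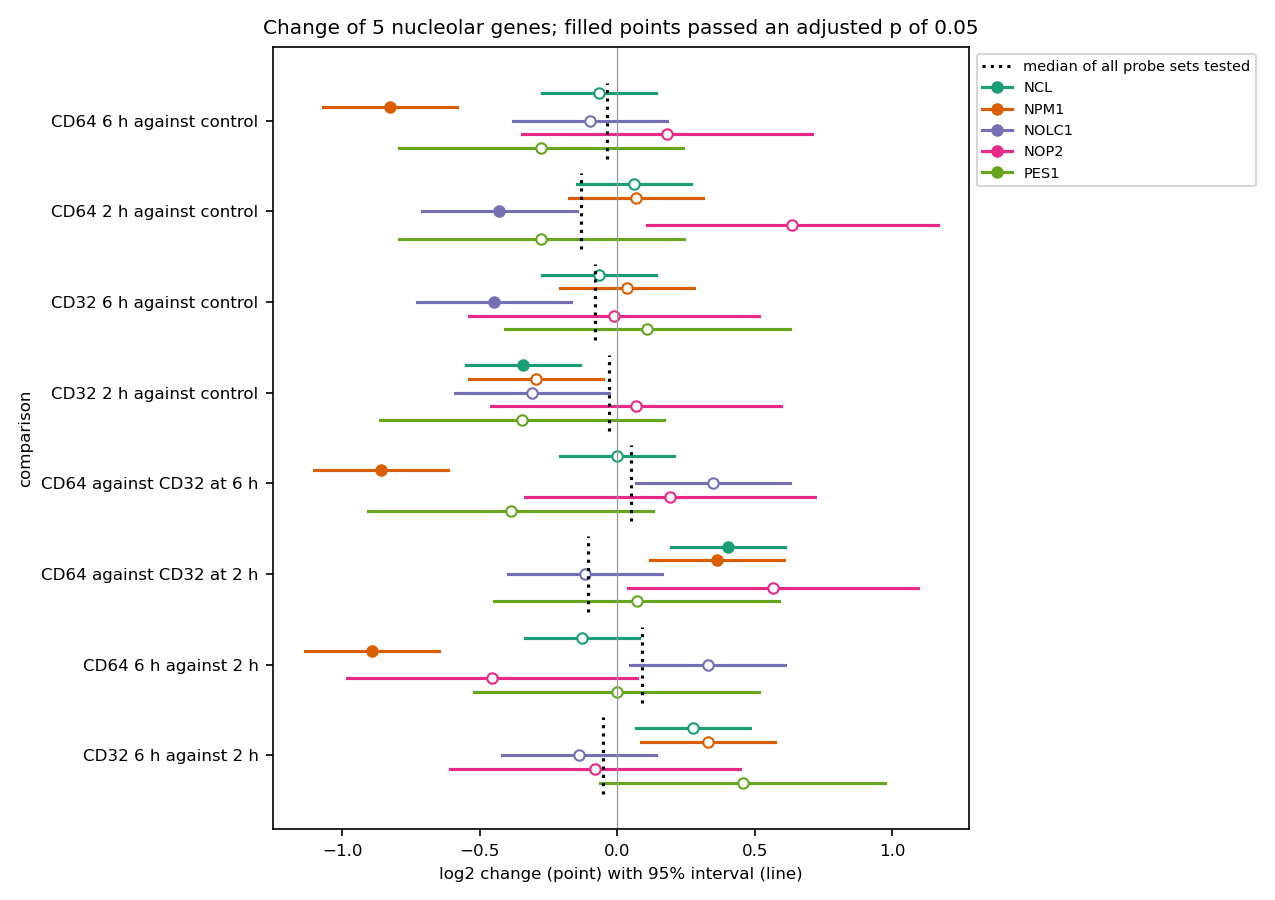
Log2 change (point) and 95% interval (line) of the 5 genes in 8 comparisons, with the first-named group over the second; filled points have a limma adjusted p under 0.05 and the dotted bars mark the median of all probe sets tested. NPM1 is at -0.83, -0.86 and -0.89 in the 3 comparisons of CD64 6 h cells.

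The receptors were then set against each other at equal times, which does not use the control arrays. At 6 h NPM1 was lower after CD64 than after CD32, with a mean of 7620 ± 265 in CD64 6 h cells and 13844 ± 1126 in CD32 6 h cells (SD, n = 2 each). The log2 difference was -0.86 with a 95% interval of -1.10 to -0.62 (limma adjusted p = 0.000409). It was the 1 member called, where 17.6% of all probe sets were called, 9.81% as higher and 7.80% as lower. After quantile normalization the difference was -0.23 (adjusted p = 0.311), and it remained called under the other 3 scalings and without each of the 4 arrays in turn. NCL had a difference of 0.00 at 6 h, with an interval of -0.21 to 0.21. NOLC1 was 0.35 higher in CD64 6 h cells without passing the threshold (adjusted p = 0.0878).

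At 2 h the NPM1 difference ran the other way, and 2 of 5 members, NCL and NPM1, were called, both as higher after CD64. At this time 16.3% of all probe sets were called, 6.86% as higher and 9.43% as lower, and their median was -0.11. NCL averaged 4307 ± 380 in CD64 2 h cells and 3249 ± 65.0 in CD32 2 h cells (SD, n = 2 each), a log2 difference of 0.40 (limma adjusted p = 0.0139). NPM1 averaged 14144 ± 421 in CD64 2 h cells and 11002 ± 792 in CD32 2 h cells (SD, n = 2 each), a log2 difference of 0.36 (limma adjusted p = 0.0465).

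Both calls at 2 h were close to the threshold. The NPM1 call was lost after quantile (0.14, adjusted p = 0.598), cyclic loess (0.16, adjusted p = 0.481) and median scaling (0.62, adjusted p = 0.175) and without any 1 of the 4 arrays, and the NCL call after quantile normalization (0.27, adjusted p = 0.0616), after median scaling (0.66, adjusted p = 0.103) and without either CD32 2 h array or the second CD64 2 h array. NOP2 was 0.57 higher in CD64 2 h cells, with arrays that did not overlap and an adjusted p of 0.149. The median over the 5 members was 0.36.

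Within a receptor, the later time was compared with the earlier one. For CD64, NPM1 averaged 7620 ± 265 at 6 h and 14144 ± 421 at 2 h (SD, n = 2 each), a log2 change of -0.89 with a standard error of 0.11 (limma adjusted p = 0.000554). It was again the 1 member called, where 13.8% of all probe sets were called, 7.56% as higher and 6.25% as lower. The change was -0.34 after quantile normalization (adjusted p = 0.146) and -0.40 after cyclic loess normalization (adjusted p = 0.0545). NOP2 was -0.46 and NOLC1 0.33 between these times, neither called.

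For CD32, 0 of 5 members were called between 6 h and 2 h by limma, where 4.46% of all probe sets were called, 2.04% as higher and 2.43% as lower. An unadjusted p under 0.05 was reached by 2 members, NPM1 and NCL, with log2 changes of 0.33 and 0.28 (adjusted p = 0.126 and 0.134), and by 18.6% of all probe sets. Their CD32 6 h arrays lay above their CD32 2 h arrays without overlap.

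The interaction term asks whether the change with time differed between the receptors: it is the 6 h over 2 h change for CD64 minus that for CD32. For NPM1 it was -1.22 with a standard error of 0.16 and a 95% interval of -1.57 to -0.88 (limma adjusted p = 0.00083). NPM1 was the 1 of 5 members called, where 11.5% of all probe sets were called, 6.72% as positive and 4.75% as negative. It was -0.36 after quantile normalization (adjusted p = 0.315) and -0.54 after cyclic loess normalization (adjusted p = 0.0776). The other terms were -0.40 for NCL (adjusted p = 0.08), 0.47 for NOLC1, -0.37 for NOP2 and -0.46 for PES1, and the median over all probe sets was 0.16.

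**Figure D4:**
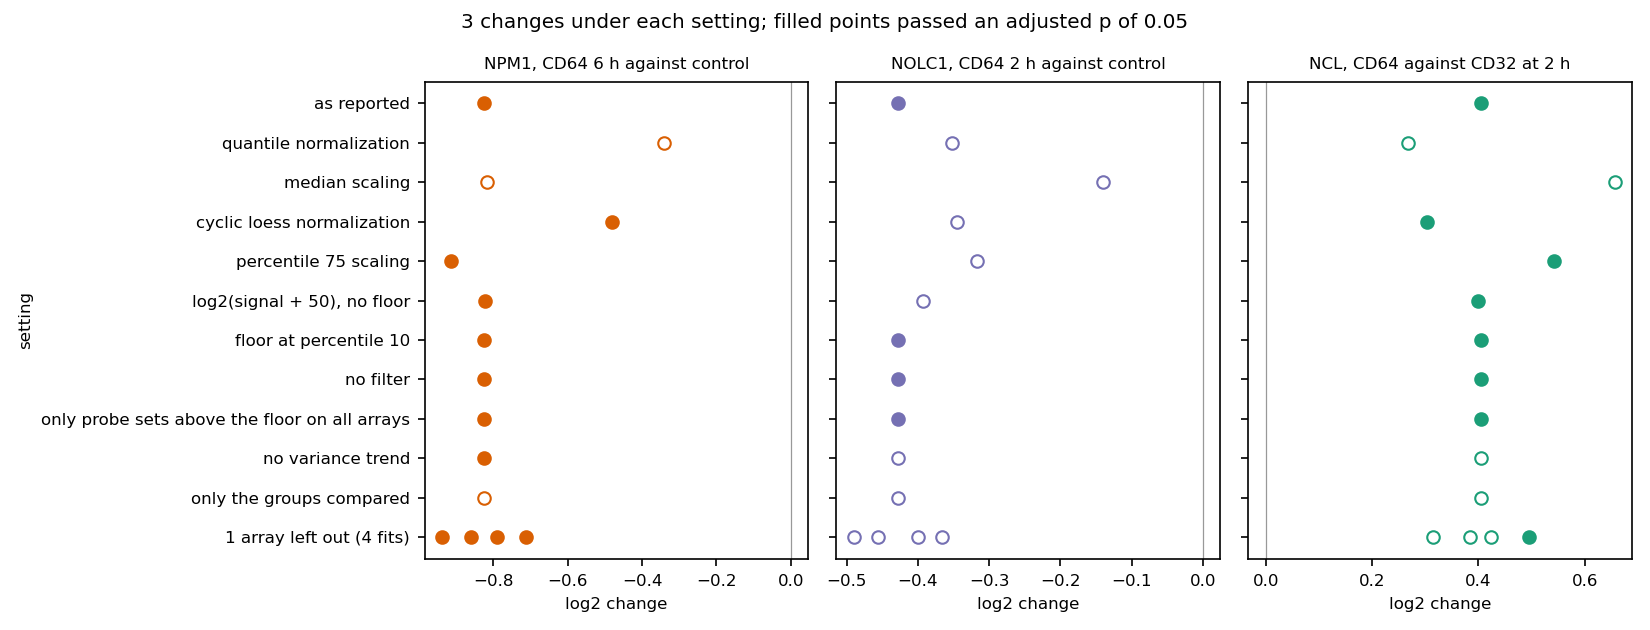
Log2 change of NPM1 (CD64 6 h against control), NOLC1 (CD64 2 h against control) and NCL (CD64 against CD32 at 2 h) under each setting of the processing; each point is 1 fit, filled where the limma adjusted p is under 0.05. NPM1 keeps its sign and runs from -0.34 after quantile normalization to -0.94 with 1 array left out, and NOLC1 is filled in 4 of 15 fits.

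The wider pathway was read from 6 lists of other ribosome assembly genes, 177 in all, of which 64 were tested. At 2 h of CD64 cross-linking 12 of the 64 rose and 1 fell, 18.8% and 1.56% of them, where 7.64% and 8.24% of all probe sets did. The 1 that fell was TAF1A, of the list of RNA polymerase I and its factors (log2 change -0.91, limma adjusted p = 0.03). Its call was lost under each of the 4 other scalings. The median log2 change of the 64 was 0.13, beside -0.13 over all probe sets. This median was above 0 under the 4 other scalings, with 14 to 18 genes called higher. The number higher was 8 or 9 with 1 of the 4 arrays left out and 0 when only the 2 groups were fitted.

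GTPBP4, a nucleolar GTPase of large subunit assembly, rose most in its list. Its signal was 1392 and 2125 in CD64 2 h cells, against 567.9 and 526.8 in control cells, 3.14-fold higher (log2 change 1.65, limma adjusted p = 0.000241). The 2 CD64 2 h arrays were far apart, but both lay above the other 8. PNO1, which matures the small subunit RNA, had 696.6 and 576.2 in CD64 2 h cells and 256.9 and 260.4 in control cells (log2 change 1.29, adjusted p = 0.000762). GAR1, of the pseudouridine particles to which DKC1 belongs, had 857.8 and 739.1 in CD64 2 h cells and 512.3 and 515.4 in control cells (log2 change 0.63, adjusted p = 0.00587). Higher signals were also called for POP7, a subunit of the RNA-cutting enzymes RNase P and MRP (log2 change 0.93), and for UTP14A of the small subunit processome (0.98). Each of these 5 kept a positive change under the 4 other scalings, and the UTP14A call was lost without any 1 of the 4 arrays.

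At 6 h of CD64 cross-linking 10 of the 64 rose and 6 fell, 15.6% and 9.38% of them, beside 10.7% and 9.94% of all probe sets. With 1 of the 4 arrays left out 5 to 13 were higher and 2 to 5 lower. PNO1, GTPBP4 and GAR1 were still higher than in control, with log2 changes of 1.08, 1.05 and 0.64. POP4, another RNase P and MRP subunit, had 1435 and 1242 in CD64 6 h cells and 603.7 and 771.0 in control cells (log2 change 0.97, limma adjusted p = 0.000655). Among the genes that fell was POLR1E, a subunit of RNA polymerase I (log2 change -1.08, limma adjusted p = 0.00771). Its signal was 207.4 and 152.8 in CD64 6 h cells and 375.9 and 376.7 in control cells. TAF1C, of the factor that brings the polymerase to its promoter, also fell (-1.61, adjusted p = 0.0105). The TAF1C signal was 55.3 and 90.3 in CD64 6 h cells, near the floor of 37.5. It was 211.8 and 220.1 in control cells. Against 10 higher and 6 lower among these genes, NPM1 was the 1 called member and was lower.

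After CD32 cross-linking the shares called higher were near those of all probe sets. At 6 h 5 of the 64 rose and 9 fell, 7.81% and 14.1% of them, beside 9.63% and 10.3% of all probe sets. At 2 h 6 rose and 3 fell, 9.38% and 4.69%, beside 8.86% and 6.60%. With 1 array left out 3 to 6 were higher and 3 to 6 lower at 6 h, and 2 to 6 higher and 0 to 3 lower at 2 h. XPO1, the export receptor that carries new subunits out of the nucleus, had 7474 and 6619 in CD32 6 h cells and 7363 and 7281 in CD32 2 h cells, against 3875 and 4143 in control cells. Its log2 changes were 0.81 (limma adjusted p = 0.000234) and 0.87 (adjusted p = 0.000216). PNO1 and POP4, named above for CD64, were also called higher in CD32 2 h cells than in control. Their log2 changes were 0.66 and 0.54 (limma adjusted p = 0.0292 and 0.0262). NMD3, the adaptor between XPO1 and the large subunit, fell at 6 h, to 173.9 and 239.8 in CD32 6 h cells against 379.2 and 479.3 in control cells (log2 change -1.06, adjusted p = 0.00416). RUVBL2, an ATPase that helps to assemble the RNA-modifying particles, had a log2 change of -0.84 at 6 h (adjusted p = 0.000888). It was also called lower in CD64 6 h and CD32 2 h cells, by -0.50 and -0.51 (limma adjusted p = 0.0156 and 0.0193). EXOSC10, of the exosome list, was lower than in control in CD64 6 h, CD32 6 h and CD32 2 h cells. Its log2 changes were -0.60, -0.78 and -0.56 in that order (limma adjusted p = 0.00583, 0.00129 and 0.0112). NLE1 and TTF1 fell at 6 h of CD32 cross-linking, with log2 changes of -1.57 and -1.39 (limma adjusted p = 0.0178 and 0.0139). In CD32 6 h cells NLE1 was at 127.8 and 67.7 and TTF1 at 96.9 and 102.5, near the floor of 37.5. In control cells NLE1 was at 287.8 and 266.8 and TTF1 at 265.7 and 257.9. NLE1 was also called lower in CD64 6 h cells (-1.32, limma adjusted p = 0.0387). POLR1D, a subunit shared by RNA polymerases I and III, was higher than in control in all 4 cross-linked groups, with log2 changes of 0.47 in CD64 6 h, 0.56 in CD64 2 h, 0.77 in CD32 6 h and 0.55 in CD32 2 h cells.

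Set directly against CD32, CD64 gave 13 higher and 3 lower of the 64 at 2 h, 20.3% and 4.69% of them, beside 6.86% and 9.43% of all probe sets. At 6 h it gave 10 higher and 2 lower, 15.6% and 3.12%, beside 9.81% and 7.80%. With 1 of the 4 arrays left out, 5 to 9 were higher at 2 h and 4 to 7 at 6 h. The small subunit processome protein WDR3 had 482.5 and 616.7 in CD64 2 h cells and 232.8 and 229.2 in CD32 2 h cells, with a log2 difference of 1.24 (limma adjusted p = 0.00175). C1D, a cofactor of the RNA exosome, was higher after CD64 at both times, by 1.13 at 2 h and 0.89 at 6 h, though the 6 h call was lost without any 1 of the 4 arrays. XPO1 was lower, by -0.73 at 2 h and -0.43 at 6 h. The XPO1 difference at 6 h was called under 1 of the 4 other scalings, with -0.13 after quantile normalization, and in 1 of the 4 fits with an array left out. Between 6 h and 2 h, 5 rose and 7 fell for CD64, 7.81% and 10.9%, beside 7.56% and 6.25% of all probe sets. Fewer were called in either direction with 1 array left out. For CD32 0 rose and 2 fell, 3.12% of the 64, beside 2.04% and 2.43% of all probe sets, and with 1 array left out 0 were called.

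Ribosomal protein genes, the parts that the members assemble, also had lower deposited signals in the CD64 6 h cells. Of 49 tested, 39 fell and 0 rose in CD64 6 h cells against control, with a median log2 change of -0.59. Against CD32 6 h cells 37 fell and 2 rose (median -0.70), and against CD64 2 h cells 43 fell and 0 rose (median -0.72). In the same order, 9.94%, 7.80% and 6.25% of all probe sets were called lower, and 10.7%, 9.81% and 7.56% higher. Of the 385 brightest probe sets 182, 183 and 208 were called lower. RPS10 had 14536 and 15801 in CD64 6 h cells, against 27987 and 27312 in control cells (log2 change -0.87, limma adjusted p = 0.000357, and 0.00 after quantile normalization). Of the 49, 45 were among the 385 brightest probe sets, and the calls depended on the scaling: against control 0 genes were called lower and 1 higher after quantile normalization, where the median was 0.00, and 10 lower after cyclic loess normalization, where it was -0.21. Quantile normalization turned the comparison with CD32 6 h cells round, to 10 higher and 1 lower (median 0.13), and left 2 higher and 1 lower in that with CD64 2 h cells (median -0.0023). With 1 array left out 27 to 36 fell against control. In CD32 6 h cells against control 8 rose and 2 fell (median 0.19), which became 0 higher and 8 lower after quantile normalization (median -0.10). In CD64 2 h cells 2 rose and 1 fell, and in CD32 2 h cells 0 rose and 6 fell. Beside these, 9.63% of all probe sets rose and 10.3% fell in CD32 6 h cells. The shares were 7.64% and 8.24% in CD64 2 h cells and 8.86% and 6.60% in CD32 2 h cells.

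**Figure D5:**
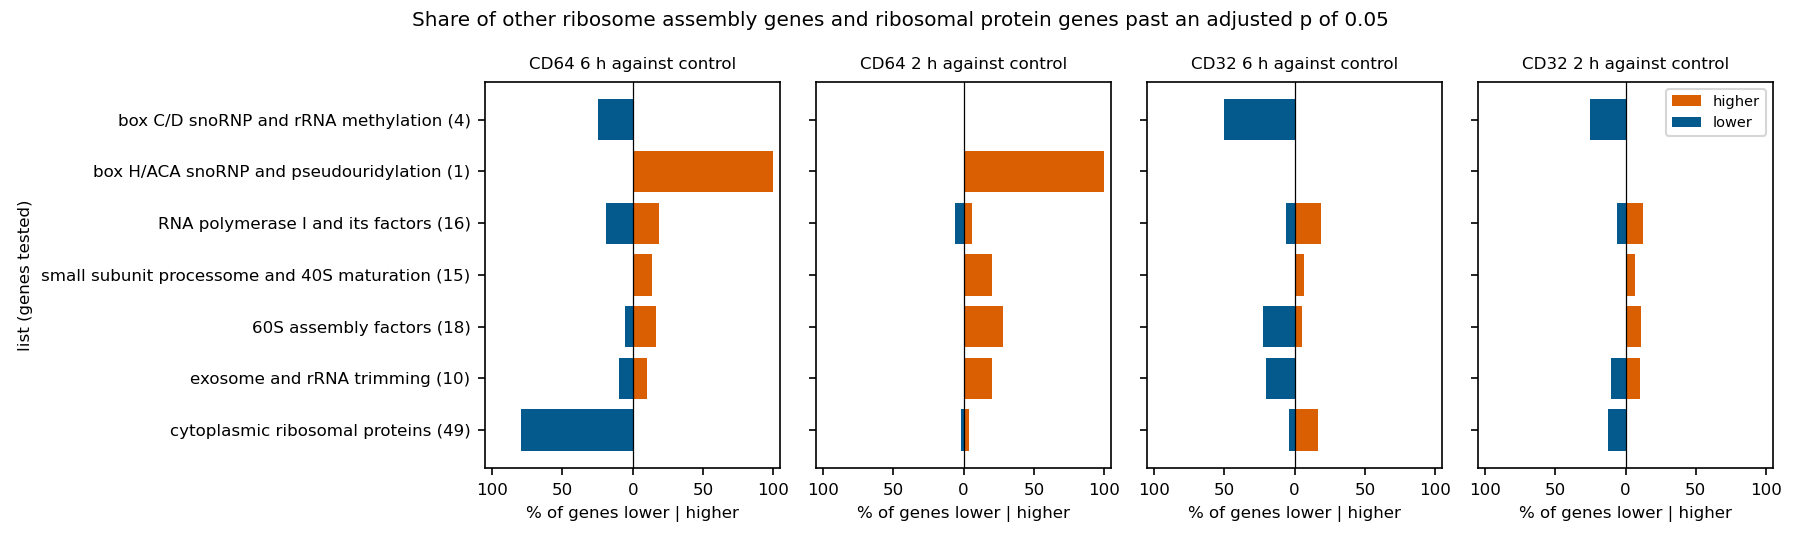
Share of the tested genes of each list (number in brackets) called higher (orange, right of 0) or lower (blue, left of 0) against control at a limma adjusted p under 0.05, in the 4 cross-linked groups. Of the 49 ribosomal protein genes 39 are lower in CD64 6 h cells, where 9.94% of all probe sets are. The box H/ACA list holds 1 tested gene, GAR1.

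MYC itself was lower than in control in every cross-linked group. Its signal was 656.6 and 606.4 in CD64 6 h cells, 1158 and 1347 in CD64 2 h cells, 346.0 and 328.9 in CD32 6 h cells, and 410.8 and 515.7 in CD32 2 h cells, against 1788 and 2059 in control cells. The log2 changes were -1.60, -0.62, -2.51 and -2.06 in that order of groups, and limma called all 4 (adjusted p = 2.88e-05, 0.014, 1.47e-06 and 6.78e-06). MYC was lowest in CD32 6 h cells. There NOLC1 averaged 482 (log2 change -0.45), beside 489 in CD64 2 h cells, where MYC was highest of the cross-linked groups. In CD64 6 h cells, where MYC changed by -1.60, NOLC1 changed by -0.10. In CD32 6 h cells NCL, NOP2, NPM1 and PES1 had log2 changes of -0.07, -0.01, 0.03 and 0.11 that were not called. Whether the members' levels depend on MYC was not tested. The MYC change in CD64 2 h cells was the least firm of these, from -0.73 to -0.33 over the alternatives. It missed the threshold after median scaling, where it was -0.33. The other MYC changes against control were called under all 4 other scalings.

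As a description over the 10 arrays, the profile of the members' mean was matched best by GRM8 (Pearson r = 0.92), CLK1 (0.91), PCBP1 (0.90), SF3B1 (0.89) and STK17B (0.89), out of 6794 single-symbol probe sets outside the lists. The arrays share their scaling and RNA quality, and only 2 arrays stand behind each group.

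The labelled cell type was checked on its markers. Of 11 monocyte and myeloid markers on the array 8 were above the floor on all 10 arrays, and 7 of 7 interferon gamma response markers were. So were 4924 of the 8746 probe sets that are not controls. The median signal was under 500 for 5 of these 11 markers and 2 of these 7. CD14 was above the floor on 3 arrays and MPO on 2. Of T cell, B cell, and epithelial and fibroblast markers 1 of 6, 1 of 4 and 1 of 7 were above the floor on all 10 arrays. Of erythroid markers 1 of 1 was, HBB, with a signal of 169.6 to 463.7. All markers of these other cell types had a median under 500. The median signal of an array ran from 101 to 153. Each of the 10 arrays correlated best with the other array of its own group, with Pearson r of 0.964 to 0.977 within pairs and 0.925 to 0.971 between groups.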

How the data were processed

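Total RNA of U937 cells was measured on 10 arrays, 2 in each of 5 groups. The deposited values were signal intensity, 1 linear value per probe set and array, and the authors had scaled them: trimmed by 2% at each end, the mean of an array lay between 500.5 and 500.6. Which software did so is not given in the sources used here. There were 8793 probe sets, 47 of them controls. Of the other 8746, the platform annotation gave 7840 1 symbol, 388 several and 518 none. Values under 37.5, percentile 25 of all values, were set to that floor and log2 was taken. The 7708 probe sets that passed the floor on 2 or more arrays were fitted together with limma 3.58.1 in R 4.3.3, with 1 term per group and a variance trend. Tests were two-sided in 9 comparisons, with Benjamini-Hochberg adjustment over all 7708 and calls at an adjusted p under 0.05. The fit was tested on simulated data. Members and lists were chosen with earlier results of these data known. All members were named, as were MYC and the best matched profiles. Other genes were drawn from up to 2 called higher and 2 called lower per list and comparison, by size of change. Not all of these are given in the text. Changes are on the log2 scale, first group over second. The number of arrays limits the precision. Alternatives were 4 scalings, an offset of 50 in place of the floor, a floor at percentile 10, 2 other filters, no variance trend, only the groups compared, and each array left out.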

Additional observations from a re-analysis of the deposited data

Results flagged for a closer look

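The change from 2 h to 6 h differed between the receptors, by a test of the difference itself, for 8 of the genes named. Apart from NPM1 they were named because they were called in this and in other comparisons, so their number is a result of the selection. Of all probe sets 11.5% were called, 6.72% as positive and 4.75% as negative. Of the 64 other assembly genes tested, 3 were called as positive and 3 as negative, 4.69% each. For NPM1 the difference was -1.22 on the log2 scale (limma adjusted p = 0.00083), CD64 minus CD32. Among other assembly genes it was -1.37 for CEBPZ, a large subunit factor, -1.04 for GTPBP4, 0.70 for BUD23, which methylates small subunit RNA, and 1.52 and 0.96 for RPP14 and POP4 of RNase P and MRP. Between arrays of 1 group these genes also varied: with 1 of the 8 arrays left out GTPBP4 was called in 1 of 8 fits, POP4 in 5, CEBPZ and BUD23 in 6, and RPP14 in 8. The ribosomal protein genes RPS18 and RPL30 had -1.44 and -1.44. After quantile normalization NPM1 was at -0.36, RPS18 at -0.23 (limma adjusted p = 0.487) and RPL30 at -0.16 (adjusted p = 0.638), none of them called. RPS18 was called under 2 and RPL30 under 1 of the 4 other scalings.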

How the results depend on the processing

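No change of a member that was called as reported, or under an alternative, had the opposite sign in the other, and of 650 recomputed member changes 42 changed sign with neither value called. The called members numbered 1 in each comparison with control, 2 and 1 for CD64 against CD32 at 2 h and 6 h, 0 and 1 for 6 h against 2 h of CD32 and CD64, and 1 for the interaction. Quantile normalization gave 0 for CD64 6 h against control, CD64 against CD32 at both times, CD64 6 h against 2 h and the interaction. Cyclic loess normalization gave 0 for CD32 6 h against control, CD64 6 h against 2 h and the interaction, and 1 for CD64 against CD32 at 2 h. Median scaling gave 0 for all 4 comparisons with control and for CD64 against CD32 at 2 h. The offset of 50 gave 0 for CD64 2 h. With no variance trend the 3 comparisons with control other than CD64 6 h, and CD64 against CD32 at 2 h, gave 0, and with only the groups compared all 4 comparisons with control, CD64 against CD32 at 2 h and CD64 6 h against 2 h gave 0. More were called with percentile 75 scaling (2 for CD64 6 h against 2 h and for the interaction), with no filter (2 for CD32 2 h against control, CD64 against CD32 at 6 h, CD64 6 h against 2 h and the interaction, but 1 for CD64 against CD32 at 2 h) and with only probe sets above the floor on all arrays (2 for CD32 2 h against control). With 1 array left out, 0 to 0 members were called for CD32 2 h, CD32 6 h and CD64 2 h against control and for CD32 6 h against 2 h, 0 to 1 for CD64 against CD32 at 2 h, and 1 to 1 for each of the 4 comparisons in which NPM1 was called lower.

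The members' median less that of all probe sets was -0.062 for CD64 6 h, 0.19 for CD64 2 h and 0.071 for CD32 6 h against control, -0.049 and 0.47 for CD64 against CD32 at 6 h and 2 h, 0.33 for CD32 6 h against 2 h and -0.56 for the interaction. After quantile normalization these were -0.22, -0.046, -0.060, 0.054, 0.24, 0.024 and -0.36. Cyclic loess normalization gave -0.17, -0.068 and -0.10 against control, 0.26 for CD64 against CD32 at 2 h and 0.13 for CD32 6 h against 2 h. With 1 array left out it ran from -0.15 to 0.036 for CD64 6 h, 0.029 to 0.25 for CD64 2 h, -0.094 to 0.099 for CD32 6 h and -0.33 to -0.17 for CD32 2 h against control, -0.22 to 0.051 and 0.32 to 0.53 for CD64 against CD32 at 6 h and 2 h, -0.33 to -0.094 and 0.25 to 0.39 for CD64 and CD32 6 h against 2 h, and -0.68 to -0.45 for the interaction. The cause was not tested. No paired analysis was possible because the labels number only the control arrays. The number of arrays, 2 a group, limits every value.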
